A study of Mus musculus with 6 samples.

Results

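Laminins, nidogens and perlecan make up the basement membrane together with type IV collagen. The 10 genes described here are *Lama1*, *Lama2*, *Lama4*, *Lama5*, *Lamb1*, *Lamb2*, *Lamc1*, *Nid1*, *Nid2* and *Hspg2*, chosen by name out of 22911 genes that the probes' RefSeq accessions named. All 10 were on the array with 17 probes in all, and 8 genes with 14 probes passed the filter on dim probes. *Lama1* and *Lama2* did not pass it. WT cells (OS3-vector) were OS3 cells with the empty vector, and IG27 cells (OS3-H3F3A_K27M) were OS3 cells carrying H3f3a with the K27M mutation on a pcDNA3.1(+) plasmid. OS3 is a glial line from the brain of newborn C3H/HeN mice (male C3H in the labels) that was immortalized with SV40, so both groups share the immortalization. Both were cultured for 2 days in the same medium with serum, insulin and added glucose. There were 3 dishes of each (n = 3), 1 array per dish and all on 1 slide. Row 1 of the slide held only WT replicates 1 and 3, and row 2 held WT replicate 2 and all 3 IG27 replicates. Group and slide row can therefore not be fully told apart. Clones were established by drug selection, and the labels do not say whether a group is 1 clone or several. The dishes of a group are not known to come from independently made lines, so the p-values measure the spread between dishes and not between such lines.

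Each laminin is a trimer of an alpha, a beta and a gamma chain. Cells secrete the trimers, which bind integrins and dystroglycan at the cell surface and polymerize into a sheet through the ends of their short arms. Nidogens bind the laminin gamma 1 chain and link the sheet to type IV collagen, and perlecan, a proteoglycan with heparan sulfate chains, binds both networks and growth factors. In the brain, basement membranes lie around vessels and under the pia, where they are laid down by endothelial cells, pericytes, meningeal cells and the endfeet of astrocytes. Glioma cells are known to move along them.

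Between WT and IG27 cells, members of the same class moved in opposite directions. *Lamb1* rose 8.15-fold, *Nid1* 5.96-fold and *Lama4* 3.44-fold in IG27 cells. *Lamb2* fell 3.69-fold, *Lama5* 2.16-fold and *Nid2* 1.36-fold. *Lamc1*, which encodes the gamma chain of most laminins, and *Hspg2*, which encodes the perlecan core protein, changed least, 1.17-fold and 1.16-fold upward. Thus 5 of the 8 tested members rose and 3 fell when p-values of limma, taken two-sided, were adjusted by Benjamini-Hochberg over the 14898 genes tested and read at 0.05. Over all genes tested, 70.5% were called at this threshold, 30.5% higher and 40% lower, so that a call alone sets a member little apart from other genes. The study's methods state a threshold of 0.05 and name no adjustment. An unadjusted p of at most 0.05 also gave 5 members higher and 3 lower, where 72.9% of all genes passed. Of the 8 members, 5 changed by 2-fold or more, 3 upward and 2 downward, against 23.1% of all genes tested (11.5% upward and 11.7% downward). The median log2 fold change of the 8 members was 0.22, and that of all genes tested was -0.07.

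The starts of the genes that changed most are shown first, to set the members that rose beside those that fell. Of the 10 members, 6 had a window in the RefSeq table used here (GRCm38.p6), which runs from 250 bases before to 50 bases after the start of the gene. Of the 5 members that changed at least 2-fold, all but *Lama4* were in it. Each sequence is written 5′ to 3′ along the gene, in lower case, with matches of the searched motifs in capitals.
Lamb1, GRCm38.p6 chr12:31265043-31265342, plus strand: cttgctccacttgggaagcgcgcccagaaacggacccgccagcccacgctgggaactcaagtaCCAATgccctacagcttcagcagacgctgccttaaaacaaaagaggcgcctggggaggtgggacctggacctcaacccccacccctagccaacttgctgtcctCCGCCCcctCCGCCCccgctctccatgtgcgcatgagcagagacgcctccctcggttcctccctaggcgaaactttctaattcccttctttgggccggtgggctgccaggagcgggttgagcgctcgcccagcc
Nid1, GRCm38.p6 chr13:13437352-13437651, plus strand: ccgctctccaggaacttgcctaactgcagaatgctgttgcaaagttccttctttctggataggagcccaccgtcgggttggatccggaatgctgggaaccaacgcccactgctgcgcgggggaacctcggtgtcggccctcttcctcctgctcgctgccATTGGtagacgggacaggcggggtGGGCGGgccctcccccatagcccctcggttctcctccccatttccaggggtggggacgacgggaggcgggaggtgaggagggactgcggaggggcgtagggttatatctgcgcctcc
Lama5, GRCm38.p6 chr2:180225810-180226109, minus strand: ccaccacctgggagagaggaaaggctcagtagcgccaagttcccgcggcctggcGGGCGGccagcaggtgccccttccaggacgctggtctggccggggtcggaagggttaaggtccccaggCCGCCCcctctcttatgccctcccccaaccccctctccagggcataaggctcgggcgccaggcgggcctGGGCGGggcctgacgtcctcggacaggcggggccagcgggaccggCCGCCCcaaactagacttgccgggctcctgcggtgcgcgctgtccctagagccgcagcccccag
Lamb2, GRCm38.p6 chr9:108479612-108479911, plus strand: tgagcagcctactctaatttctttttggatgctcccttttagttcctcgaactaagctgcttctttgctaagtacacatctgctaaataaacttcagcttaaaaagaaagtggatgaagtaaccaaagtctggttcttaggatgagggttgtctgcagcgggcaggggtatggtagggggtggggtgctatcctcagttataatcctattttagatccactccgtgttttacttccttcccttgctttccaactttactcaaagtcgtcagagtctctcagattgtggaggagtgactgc
The motifs searched on both strands were GGGCGG (the GC box), CCAAT (the binding sequence of NF-Y), TATAAA (the TATA box), TGANTCA (the AP-1 element) and CACGTG (the E-box). They were held by 35.7%, 37.4%, 13.6%, 7.81% and 7.15%, respectively, of 32851 windows of the same length. No 2 matches in the printed windows overlapped. The windows of *Lamb1* and *Nid1*, both higher in IG27 cells, each held GGGCGG and CCAAT, with 2 and 1 matches of GGGCGG and 1 match of CCAAT in each. The window of *Lama5*, lower in IG27 cells, held 4 matches of GGGCGG and none of the other motifs. The window of *Lamb2*, also lower, held none of the 5 motifs. CG dinucleotides numbered 18 in the window of *Lamb1*, 20 in that of *Nid1* and 24 in that of *Lama5*, against a median of 7 over all windows. The window of *Lamb2* held 4. Of the members not printed, the window of *Hspg2* held 5 matches of GGGCGG and 27 CG dinucleotides, and that of *Lama2*, a gene not well above background, held 1 match and 1 CG dinucleotide. These matches describe the letters of the windows, and binding was not measured.

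Values are given as normalized log2 intensity, the log2 of the processed signal minus the 75th percentile of the same array, so that 0 is the level of that percentile. Signals of different probes are not comparable as amounts of RNA, and each probe was therefore compared only with itself across arrays. The arrays of a group lay close together, with SDs of the 8 members from 0.01 to 0.13.

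**Figure D1:**
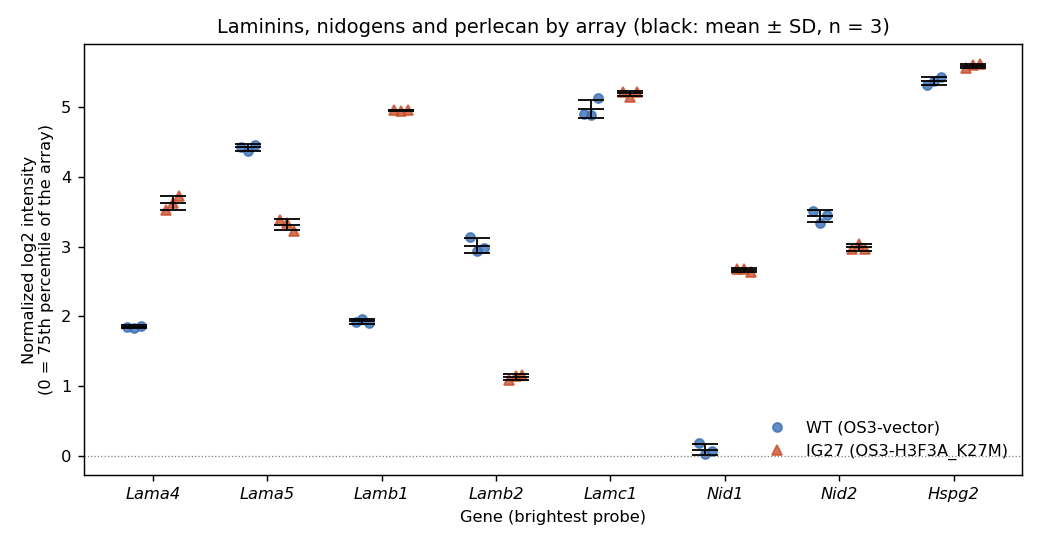
Normalized log2 intensity (y axis, 0 is the 75th percentile of the array) of the brightest probe of each of the 8 tested members on each of the 3 WT arrays (circles) and 3 IG27 arrays (triangles), with mean and SD in black. No gene has overlapping groups, and *Lamb1*, *Nid1* and *Lama4* lie higher in IG27 cells while *Lamb2*, *Lama5* and *Nid2* lie lower.

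Of the alpha chains, which carry the main binding sites for integrins and dystroglycan, *Lama4* and *Lama5* were measured in both groups. *Lama4* encodes the alpha 4 chain, which lacks most of the short arm and is known from vessels, muscle and nerve. Its values were 1.85, 1.83 and 1.87 in WT replicates 1 to 3 and 3.53, 3.63 and 3.73 in IG27 replicates 1 to 3. The groups did not overlap, and the smallest IG27 value was far above every WT value. Its log2 fold change was 1.78 (standard error 0.06, 95% interval 1.63 to 1.94, adjusted p = 1.93e-06 from limma). The second, dimmer probe of *Lama4* gave -2.03, -1.91 and -1.98 in WT cells and 0.06, -0.04 and -0.31 in IG27 cells, which is a log2 fold change of 1.88.

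*Lama5* encodes the alpha 5 chain, found in most adult basement membranes. Its values were 4.44, 4.37 and 4.46 in WT cells and 3.38, 3.34 and 3.23 in IG27 cells. All WT arrays lay above all IG27 arrays. The log2 fold change was -1.11 (standard error 0.06, 95% interval -1.26 to -0.96, adjusted p = 1.10e-05 from limma). Only 1 probe of *Lama5* was named, so no second probe bears on this value.

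*Lama1* encodes the alpha 1 chain of early embryonic and some adult basement membranes, and *Lama2* the alpha 2 chain of muscle, Schwann cells and brain vessels. The probe of *Lama1* and both probes of *Lama2* were not well above background on any array with complete scanner output. The probe of *Lama1* ranged from -8.18 to -7.59 in WT cells and from -7.68 to -7.35 in IG27 cells. The brighter probe of *Lama2* had -7.95, -7.75 and -8.25 in WT cells and -6.44, -6.30 and -7.36 in IG27 cells. Its groups did not overlap, but the values lie where the signal cannot be told from background, so no fold is given and both genes were left out of the test. The other probe of *Lama2* overlapped between the groups, with -7.84, -7.67 and -7.81 in WT cells and -7.49, -7.78 and -7.51 in IG27 cells.

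The beta chains showed the widest separation. *Lamb1* encodes the beta 1 chain, present from the first embryonic basement membranes onward. Its values were 1.92, 1.96 and 1.90 in WT cells and 4.96, 4.94 and 4.96 in IG27 cells. Within each group the arrays differed by less than 0.1, against a log2 fold change of 3.03 (standard error 0.04, 95% interval 2.92 to 3.13, adjusted p = 9.87e-08 from limma). In size this change was larger than that of 94.6% of the genes tested. The other probes of *Lamb1* gave log2 fold changes of 3.17 and 2.46, the latter from the dimmest probe, with values of -1.94, -2.16 and -2.02 in WT cells and 0.42, 0.22 and 0.61 in IG27 cells.

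*Lamb2* encodes the beta 2 chain, known from the neuromuscular junction, the kidney glomerulus and the retina. Its values were 3.13, 2.93 and 2.97 in WT cells and 1.08, 1.14 and 1.16 in IG27 cells. The groups were thus separated in the direction opposite to that of *Lamb1*. The log2 fold change was -1.88 (standard error 0.07, 95% interval -2.05 to -1.72, adjusted p = 2.04e-06 from limma), from the single probe of this gene.

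*Lamc1* encodes the gamma 1 chain, which pairs with either beta chain and holds the nidogen binding site. Its values were 4.91, 4.88 and 5.13 in WT cells and 5.22, 5.15 and 5.23 in IG27 cells. The groups did not overlap, but WT replicate 3 lay just below the lowest IG27 array. The log2 fold change was 0.23 (standard error 0.08, 95% interval 0.04 to 0.41, adjusted p = 0.0392 from limma), and without WT replicate 2 it was 0.18 (adjusted p = 0.110 from limma) and no longer called. Of 16 distinct alternative settings 6 left it uncalled, among them those that left out any 1 array other than WT replicate 3, which gave 0.18 to 0.25. Its second probe moved the same way, from 0.15, 0.19 and -0.04 in WT cells to 0.94, 0.47 and 0.89 in IG27 cells, which is a log2 fold change of 0.67, and the mean of both probes gave 0.45.

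The nidogens, glycoproteins that bridge laminin and collagen, differed in direction as the beta chains did. *Nid1* had values of 0.18, 0.02 and 0.07 in WT cells and 2.68, 2.68 and 2.63 in IG27 cells. Every IG27 array was above every WT array, with a log2 fold change of 2.58 (standard error 0.06, 95% interval 2.44 to 2.72, adjusted p = 3.42e-07 from limma). The second probe of *Nid1* was not well above background on the 3 WT arrays and was above it on both IG27 arrays with complete scanner output. For such a probe only a lower bound of the fold can be given. The dim group was set, array by array, at the lowest signal that passed as well above background, or at the probe's own signal where that was higher, and the bound for *Nid1* was at least 2.00-fold higher in IG27 cells. This bound (measured means -8.04 in WT cells and -4.77 in IG27 cells) lies in the direction of the first probe. That direction was set by the filter, which the second probe passed only through IG27 cells.

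*Nid2*, whose product binds many of the same partners as nidogen 1, had values of 3.51, 3.34 and 3.45 in WT cells and 2.97, 3.04 and 2.96 in IG27 cells. It was lower on all IG27 arrays, by a small margin. The log2 fold change was -0.45 (standard error 0.06, 95% interval -0.60 to -0.29, adjusted p = 8.48e-04 from limma), and quantile normalization gave -0.29 (adjusted p = 0.00484 from limma), still called.

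*Hspg2* had values of 5.32, 5.38 and 5.44 in WT cells and 5.57, 5.61 and 5.62 in IG27 cells. The groups were close but did not overlap. The log2 fold change was 0.22 (standard error 0.05, 95% interval 0.10 to 0.34, adjusted p = 0.00837 from limma), and with slide row as a block in limma it was 0.22 (adjusted p = 0.0567) and no longer called. The second probe of *Hspg2* ran from -1.15 to -0.95 in WT cells and from -0.94 to -0.68 in IG27 cells, which is a log2 fold change of 0.25.

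In all, the 5 members with several tested probes had no probes of opposite sign. All 14 tested probes were called in a fit over 21895 named probes, where 69.7% were called. Among them the second probe of *Nid1* passed the filter only through IG27 cells, where it is high, so its sign and call add no support. The groups did not overlap in any of the 8 members by the brightest probe, as in 75.7% of all genes tested. Ranked by log2 fold change, the order was *Lamb1*, *Nid1*, *Lama4*, *Lamc1*, *Hspg2*, *Nid2*, *Lama5* and *Lamb2*. The 95% intervals of *Lamc1* and *Hspg2* overlapped, and those of the other neighbors in this order did not.

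**Figure D2:**
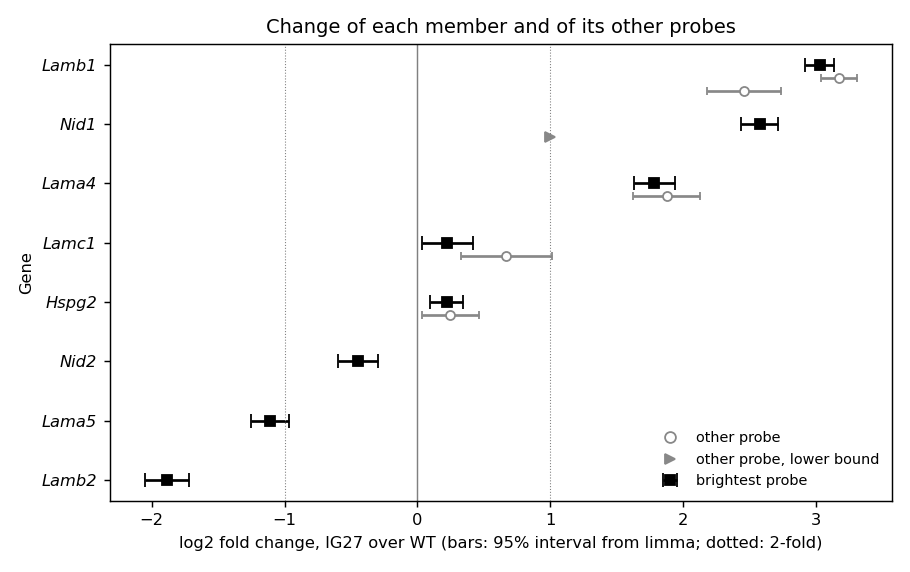
log2 fold change of IG27 over WT cells (x axis) for each tested member (y axis), with squares for the brightest probe, open circles for other probes, a triangle for a lower bound and bars for 95% intervals from limma. *Lamb1*, *Nid1* and *Lama4* lie beyond the dotted 2-fold line to the right and *Lama5* and *Lamb2* beyond it to the left. Probes of the same gene lie on the same side of 0, where the side of the triangle was set by the filter on dim probes.

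Because both members of a class were read on the same array, the difference between them does not depend on the scaling between arrays. Each class with a pair of tested genes was examined, 3 pairs in all. For the beta chains, *Lamb1* minus *Lamb2* was -1.21, -0.97 and -1.07 on WT arrays and 3.88, 3.80 and 3.80 on IG27 arrays. The difference changed by 4.91, so that *Lamb1* relative to *Lamb2* was 30.1-fold higher in IG27 cells. For the nidogens, *Nid1* minus *Nid2* was -3.34, -3.32 and -3.38 on WT arrays and -0.29, -0.36 and -0.33 on IG27 arrays. The difference changed by 3.02, or 8.13-fold. For the alpha chains, *Lama4* minus *Lama5* was -2.59, -2.55 and -2.59 on WT arrays and 0.16, 0.29 and 0.50 on IG27 arrays, a change of 2.89, or 7.43-fold. The sign of such a difference depends on the probes and says nothing of which gene has more RNA. In each pair the 3 arrays of 1 group lay apart from those of the other, and an exact permutation test gave p = 0.1 for each (two-sided, 0.1 after adjustment over the 3 pairs), the smallest that 3 arrays against 3 allow. In each pair 1 member rose and the other fell without overlap of the groups. The separation and this p follow from that, so the test adds no support.

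**Figure D3:**
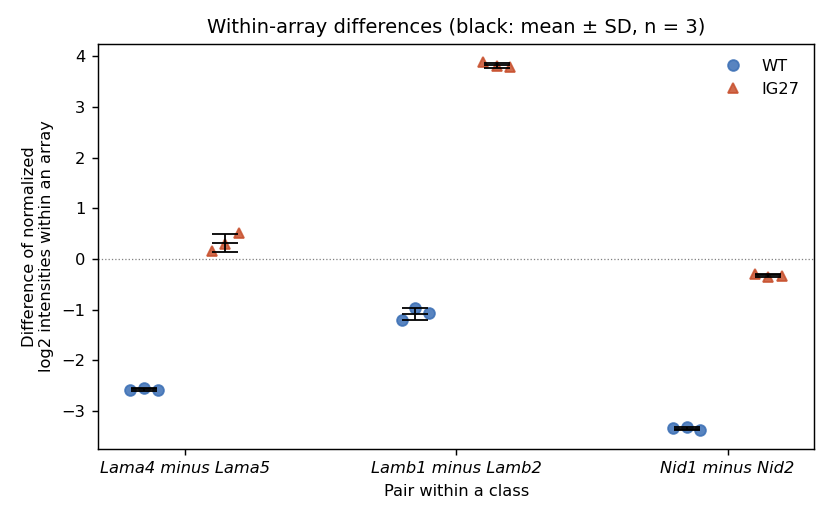
Difference between the normalized log2 intensities of 2 members of a class on the same array (y axis) for the 3 WT arrays (circles) and 3 IG27 arrays (triangles), with mean and SD in black. In each pair the IG27 arrays lie above the WT arrays, by 4.91 for *Lamb1* minus *Lamb2*.

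The members lie on 8 chromosomes, and the genes next to them did not move alike. For each member the 3 tested genes on either side were taken. The neighbors of *Lamb1* had log2 fold changes up to 0.34, with a median of -0.23, and those of *Nid1* from -0.61 to 0.10, with no neighbor near the value of the member. The neighbors of *Lama4*, among them *Marcks*, *Hdac2* and *Fyn*, were all higher, from 0.35 to 1.40 with a median of 0.80, while the median of chromosome 10 was 0.08. The neighbors of *Lamb2*, among them *Usp4* and *Qars*, were all lower, from -0.92 to -0.40 with a median of -0.79, and the median of chromosome 9 was -0.64. *Lama4* and *Lamb2* thus moved further than any of these neighbors and in their direction. *Lama5* lay within the range of its neighbors, -3.73 to 0.23, as did *Nid2* and *Hspg2*. *Lamc1* lay above all of its neighbors, which were lower, from -4.94 to -0.04. The part of chromosomal position in these values was not tested.

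**Figure D4:**
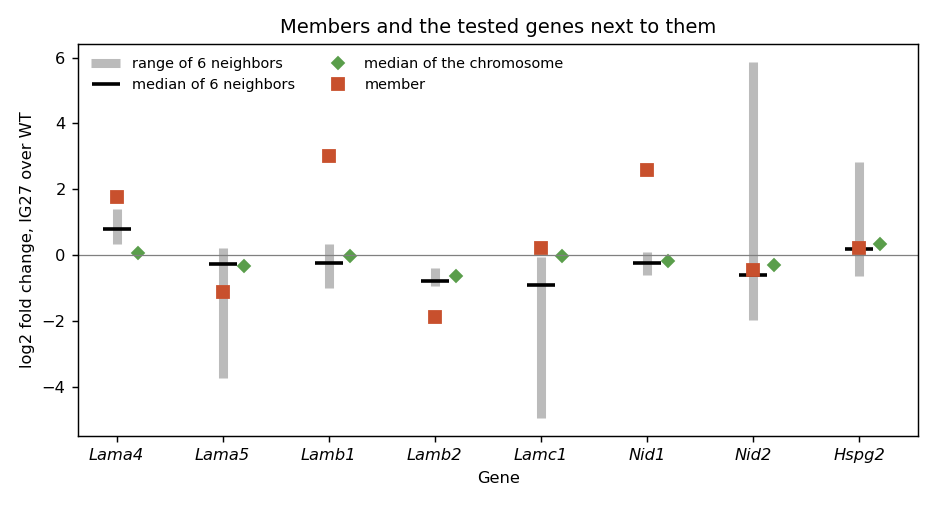
log2 fold change of IG27 over WT cells (y axis) of each member (squares), with the range and median of the 6 nearest tested genes (gray bar and black line) and the median of its chromosome (diamond). *Lamb1* and *Nid1* lie far above neighbors that range from below 0 to above it, whereas the neighbors of *Lama4* all lie above 0 and those of *Lamb2* all below it.

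Of the other laminin chains, *Lama3*, whose product is known from epithelial basement membranes, was not well above background in WT cells (mean -7.86) and had a mean of -4.40 in IG27 cells. It was at least 2.58-fold higher there, and it passed the filter only through IG27 cells. *Lamb3*, which encodes a beta chain of the same basement membranes, had a mean of -4.82 in WT cells and was below background in IG27 cells. It was not called (limma, adjusted p = 0.214). *Lamc3* was not tested.

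Type IV collagen, the other network of the basement membrane, was called lower in all 4 chains tested of 6 listed (40% of all genes tested were called lower). For 3 of these chains the direction was set by the filter on dim probes, so this count adds no support. When probes had to be well above background on every complete array, 0 chains were called lower. *Col4a1* had means of 3.40 in WT cells and -7.23 in IG27 cells and *Col4a2* of 2.21 and -7.01, and neither was well above background in IG27 cells. *Col4a1* was at least 428.1-fold lower there and *Col4a2* at least 188.3-fold, and both passed the filter only through WT cells. *Col4a6* was at least 1.51-fold lower and also passed the filter only through WT cells. *Col4a5*, measured in both groups, had a log2 fold change of -0.51. The median of the 4 chains was -5.29, or -4.08 with the 3 chains below background in IG27 cells set at their bounds, while *Lamb1* and *Nid1* rose on the same arrays.

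Among 14 tested of 20 other basement membrane proteins, 5 rose and 6 fell in IG27 cells (30.5% and 40% over all genes tested), with a median log2 fold change of -0.02. *Tinagl1* (2.65) and *Vwa1* (0.65) rose most among those measured in both groups, and *Tgfbi*, which encodes a matrix protein that binds integrins, fell most (-5.20), followed by *Smoc1* (-2.09). *Col15a1*, which encodes a basement membrane collagen, and *Ntn4*, whose product binds laminin and disturbs its polymerization, were below background in WT cells. They were at least 9.75-fold and at least 2.14-fold higher in IG27 cells. *Fras1*, *Egflam* and *Fbln2* were below background in IG27 cells instead, where they were at least 15.7-fold, 2.68-fold and 1.67-fold lower. The bound of *Egflam* rested on WT replicate 3 and was 1.72-fold without it. *Agrn*, which encodes agrin, another heparan sulfate proteoglycan of basement membranes, was not called (log2 fold change 0.09, limma, adjusted p = 0.191), nor was *Sparc*, which encodes a collagen-binding protein (-0.12, limma, adjusted p = 0.224).

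All 17 genes of the laminin receptor list were called, 7 higher and 10 lower, with a median of -0.25. Over all genes tested, 70.5% were called, 30.5% higher and 40% lower. Of the 17 genes, 3 rose and 1 fell by 2-fold or more, where 23.1% of all genes tested changed that much. The count of such changes thus sets this list little apart from other genes. The integrin alpha subunits that bind laminin moved apart, with *Itga6* higher (log2 fold change 2.14) and *Itga3* lower (-3.14). *Itgb1*, their shared beta subunit, had -0.84, and *Dag1*, which encodes dystroglycan, had -0.86. *Cd151*, a tetraspanin that associates with laminin-binding integrins, had 1.10. *Itgb3*, a beta subunit that pairs with the alpha V chain, was below background in WT cells and was at least 72.6-fold higher in IG27 cells.

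Dystroglycan binds laminin through a glycan that a chain of enzymes builds. Of 12 tested enzymes of 13 listed, 1 rose and 7 fell in IG27 cells (30.5% and 40% over all genes tested), with a median of -0.30. Among those that fell, *Pomgnt2* and *Pomk*, which act early on this glycan, had log2 fold changes of -1.26 (limma, adjusted p = 1.08e-05) and -1.16 (limma, adjusted p = 3.41e-06).

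For the heparan sulfate that perlecan carries, 20 of 23 listed genes were tested, with 8 higher, 7 lower (30.5% and 40% over all genes tested) and a median of 0.05. *Ext1* and *Ext2*, whose products together polymerize the chain, had log2 fold changes of 0.22 and -1.10. Of the genes measured in both groups, the sulfotransferases *Hs6st2* (3.29) and *Hs3st1* (2.05) rose most, and *Ndst2*, another sulfotransferase, fell most (-1.24). *Hpse*, which encodes heparanase, the enzyme that cuts heparan sulfate, and *Ndst3* were below background in WT cells and were at least 16.4-fold and 6.37-fold higher in IG27 cells. Of the matrix proteases, 6 of 14 were tested and 3 called, where 70.5% of all genes tested were called. *Mmp2* was higher (log2 fold change 2.01) and *Plat* (-1.49) and *Adamts1* (-0.63) lower, and the median of the 6 was 0.03.

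**Figure D5:**
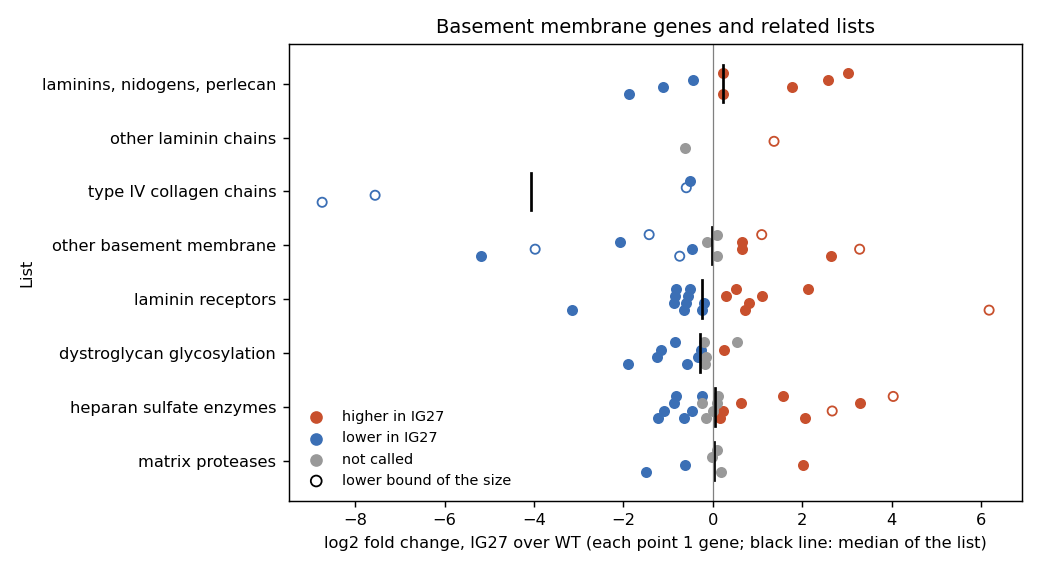
log2 fold change of IG27 over WT cells (x axis) of the tested genes of each list (y axis), colored by call at an adjusted p under 0.05 in limma, with open circles at the lower bound of the size where 1 group was not well above background and a black line at the median of the list. *Lamb3*, uncalled and below background in IG27 cells, and the median of its list are not drawn. The type IV collagen chains all lie below 0, while laminins, nidogens and perlecan spread to both sides, from -1.88 to 3.03. The side of each open circle was set by the filter on dim probes.

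The labels call the cells glial. Of the oligodendrocyte lineage markers, 7 of 8 in WT cells and all 8 in IG27 cells were well above background, with summed signals of 73.8 to 75.9 and 74.8 to 77.4 times the 75th percentile of the array. Such a sum adds different probes, so it was compared between the groups within a list and not between lists. Of the astrocyte markers, 5 of 7 were well above background in each group, with sums of 95.8 to 105.6 in WT cells and 55.1 to 63.4 in IG27 cells. Its members moved apart, with *Gfap* lower (log2 fold change -1.07), *S100b* higher (4.93) and *Slc1a3* below background in WT cells and at least 20.6-fold higher in IG27 cells. All 3 Schwann cell markers were well above background in each group (sums of 94.1 to 101.6 and 41.5 to 43.0), with *Ngfr* lower (-2.92) and *Egr2* higher (4.78). Of 7 markers of fibroblasts and pericytes, 3 were well above background in WT cells and 4 in IG27 cells (150.0 to 153.9 and 134.5 to 141.9). Of 5 endothelial markers, *Cdh5*, *Cldn5* and *Tek* were not well above background in either group. The sum moved from 0.17 to 0.19 in WT cells to 2.60 to 2.67 in IG27 cells. This rise came from *Kdr*, which was below background in WT cells, while *Pecam1* was lower in IG27 cells (log2 fold change -0.27). Of 5 neuronal markers 2 were well above background in each group (17.5 to 19.9 and 6.68 to 7.43), with *Tubb3* lower (-2.63). Of 5 microglial markers 2 were so in WT cells and 3 in IG27 cells (11.7 to 12.2 and 12.0 to 12.4), and of 4 epithelial markers none and 1 (0.02 to 0.04 and 0.30 to 0.33). In bulk RNA, fewer cells of a type and less RNA per cell cannot be told apart, and the part of these markers in the values of the laminin genes was not tested. *H3f3a*, the gene of the transfected histone, had a log2 fold change of -0.26, and it is not known whether its probe reads the RNA of the plasmid, so that its level does not check the labels.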

How the data were processed

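RNA of 3 WT and 3 IG27 dishes was labeled with Cy3 and hybridized to 1-color Agilent mouse arrays. The authors read the spots with Feature Extraction (version 10.7.3.1 per the file headers, 9.1 per the submitters' processing notes) and deposited the processed signal as a linear intensity without scaling between arrays. The RNA extraction kits named in the labels and in the study's methods differ. The file of IG27 replicate 2 holds 285 of 62976 spots, so its intensity was taken from the deposited value table, which equaled the scanner output in all 255 single-spot probes of that file (relative tolerance 1e-04). The table and the scanner files exchange WT replicates 2 and 3, and which of them has the right number is not known. The scanner files were followed, so every value given for either replicate rests on that choice, while the group comparisons do not. The flags well above background, saturated and outlier are other values of Feature Extraction that the authors deposited.

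Here, outlier spots were left out, spots of a probe were averaged, and log2 intensity minus the 75th percentile of each array was computed. No spot was saturated, and between 58.8% and 61.2% of 56605 probes were well above background on the 5 complete arrays. The number of arrays limits the precision. RefSeq accessions named 32994 probes for 22911 genes (GRCm38.p6, used for names, gene order and start windows). Genes were tested with limma (version 3.58.1, R 4.3.3; lmFit and eBayes, two-sided, Benjamini-Hochberg adjustment) by their brightest probe, after a filter that kept probes well above background throughout the complete arrays of 1 group or both. Where 1 group was below background, a lower bound of the fold was taken over complete arrays of that group. Such a gene passed the filter only through the other group, so its direction was set by the filter and its call adds no support. Named were all members and, per related list, called genes with the largest rise and fall, up to 4 a list, and genes with a bound. *Lamb3*, *Agrn*, *Sparc*, *Itgb1*, *Ext1*, the marker genes and the genes beside members were named after their values were seen. Some genes of the related lists are not reported here. Members and lists were chosen with earlier results of these data known. The steps were tested on simulated data.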

Additional observations from a re-analysis of the deposited data

How the results depend on the processing

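The fold changes of *Lama4*, *Lama5*, *Lamb1*, *Lamb2*, *Nid1* and *Nid2* kept their direction and their call in all 16 distinct alternative settings. The fit with the 5 arrays of complete scanner output is the fit without IG27 replicate 2, and they are counted once. Over these settings they ran from 1.73 to 1.92, -1.14 to -0.97, 2.89 to 3.14, -1.92 to -1.77, 2.54 to 2.92 and -0.49 to -0.29, respectively. The upper end for *Nid1* came from the mean of its probes. It includes the second probe, for which only a lower bound can be read. *Lamc1* kept its direction but lost its call with the 5 arrays of complete scanner output (log2 fold change 0.25, adjusted p = 0.0645 from limma) and without the filter on dim probes (0.23, adjusted p = 0.0857 from limma). Leaving out 1 array at a time gave 0.18 to 0.30 for *Lamc1*, and the call was kept without WT replicate 3 (0.30) and lost without any other array. *Hspg2* lost its call when slide row entered the fit as a block (0.22, adjusted p = 0.0567 from limma). Only row 2 holds both groups, with 1 WT array against 3 IG27 arrays. Within row 2 the differences were 1.81 for *Lama4*, -1.06 for *Lama5*, 2.99 for *Lamb1*, -1.80 for *Lamb2*, 0.31 for *Lamc1*, 2.65 for *Nid1*, -0.35 for *Nid2* and 0.22 for *Hspg2*. The causes were not tested. Of the lower bounds, each recomputed without 1 array in turn as chosen after seeing the data, that of *Egflam* moved by over 1.5 times.

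Replicate numbers in the titles are shared by the groups, but deviations of samples with the same number correlated at 0.01, 0.04 and 0.08, and with WT replicates 2 and 3 exchanged none of them was over 0.1, so they share only a number, and not every array correlated best with its own number. With the replicate block 10309 genes were called in place of 10501, and no call of a member changed. Over the related lists, 23 genes were higher and 36 lower, and the settings gave 18 to 26 and 31 to 38. Of all genes tested, 30.5% were called higher and 40% lower, so these counts alone set the lists little apart. Normexp correction was run on median spot signals, since the files hold no mean signals. No probe of *Lama1* or *Lama2* was well above background, so no change could be read for them.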
